A study of Homo sapiens with 6 samples.

Results

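Cadherins, catenins and EPCAM are the adhesion proteins that hold the cells of an epithelium, and of a human embryonic stem cell colony, to each other. The genes described here are 10 of the 60499 in the deposited count table: the cadherins CDH1, CDH2 and CDH3, the beta-catenin family genes CTNNB1 and JUP, the alpha-catenins CTNNA1 and CTNNA2, the delta-catenins CTNND1 and CTNND2, and EPCAM. They were chosen by name for their function, each matched 1 Ensembl gene ID, and all 10 passed the filter on low counts, with 578 to 17646 counts per library. Expression was measured by total RNA sequencing in H1, an established human embryonic stem cell line, after 4 days in NutriStem medium on 1 of 2 laminin coatings. Of the 6 wells, 3 were coated with laminin-521 alone (LN-521) and 3 with laminin-521 plus laminin-221 (LN-521+LN-221). Both groups therefore grew on laminin-521, and no genetic change was made in either. The labels number the wells as biological replicates of a single cell line, so p-values measure the spread between wells of that line.

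In an adherens junction the extracellular part of a classical cadherin binds a cadherin of the neighbouring cell. Its intracellular tail binds beta-catenin or plakoglobin, which binds alpha-catenin, which binds actin, and a delta-catenin sits nearer to the membrane and keeps the cadherin at the surface. Beta-catenin is also the effector of Wnt signalling. E-cadherin, the product of CDH1, is the main cadherin of human pluripotent stem cell colonies, and its replacement by N-cadherin, the product of CDH2, is the textbook sign of an epithelial cell becoming mesenchymal.

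The libraries held 20606494 to 26836727 counts. The labelled cell type was checked on 8 pluripotency markers, all of them expressed, of which 1 rose, 3 fell and 4 did not pass the threshold, where 1.40% of all genes rose and 1.14% fell (edgeR, adjusted p under 0.05; CPM, counts relative to library size after TMM, edgeR's trimmed-mean scaling). NANOG fell from 107 ± 10.3 CPM in LN-521 wells to 64.5 ± 7.93 in LN-521+LN-221 wells (SD, n = 3 each; edgeR adjusted p = 0.000165). TDGF1 fell from 527 ± 39.4 to 337 ± 19.8 CPM (adjusted p = 8.23e-06) and POU5F1 from 1214 ± 127 to 944 ± 26.8 (adjusted p = 0.00366), while LIN28A rose from 2694 ± 55.6 to 3171 ± 50.7 (adjusted p = 0.00737; edgeR, SD, n = 3 each). Only the TDGF1 call passed in every alternative: those of POU5F1 and LIN28A were lost with limma on TPM (3 settings) and without 1 and 3 of the libraries in turn, and that of NANOG with limma in 2 settings. The log2 estimates stayed close in size where the calls were lost, at -0.72 and -0.73 against -0.73 for NANOG, -0.35 to -0.32 against -0.36 for POU5F1 and 0.22 to 0.27 against 0.23 for LIN28A. The part of these differences in the adhesion genes' values was not tested. Of the markers of other lineages, 4 of 6 neural ectoderm, 2 of 8 mesoderm and mesenchyme, 2 of 6 endoderm, 2 of 6 trophoblast and surface epithelium and 2 of 4 endothelium genes passed the filter on low counts. The highest by mean TPM over the 6 libraries were TUBB3 at 105, NES at 62.5, COL1A1 at 40.005, KRT7 at 12.4 and TEK at 4.05 TPM, whereas TBXT, SOX17, FOXA2, GATA3 and CDH5 averaged 0.1996 CPM or less in both groups. No library pair agreed within sampling noise, and each library was counted as a replicate. RNAs of the 7SL family took 30.1% to 37.3% of the TPM (the authors' expression value corrected for transcript length), with the highest share in LN-521 replicate 2. That library had the lowest TPM of all 6 for 7 of the 10 adhesion genes, so changes between coatings are given in CPM, and TPM serves to compare genes with each other within a library.

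None of the 10 genes passed the threshold between the coatings, an adjusted p of 0.05 in edgeR's quasi-likelihood model with Benjamini-Hochberg correction over 17608 genes, while 2.53% of all genes passed. DESeq2 also called 0 of the 10, against 2.95% of all genes, and edgeR with the replicate number as a block called 0, against 3.67%. Before adjustment 4 of the 10 had p under 0.05 in edgeR (CDH1, CTNNB1, CTNNA2 and CTNND1) and 5 in DESeq2, beside 14.5% of all genes in edgeR and 11.4% in DESeq2. The point estimates were above 0 for 8 of the 10 (CDH2 with limma on TPM or the GC correction, and CDH2 and JUP with some libraries left out, changed sign), beside 49.7% of all genes, and their median log2 fold change was 0.08, beside -0.0011 over all genes. The bounds on a change were narrow. Over the 10 genes the 95% intervals of the fold change, the combined coating over laminin-521 alone, ran from 0.840 at the lowest bound, for CTNND2, to 1.24 at the highest, for CTNNA2. Among the 6399 genes at least as abundant as the least abundant of the 10, the smallest change that passed the threshold was 0.19 on the log2 scale and 3.89% passed.

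**Figure D1:**
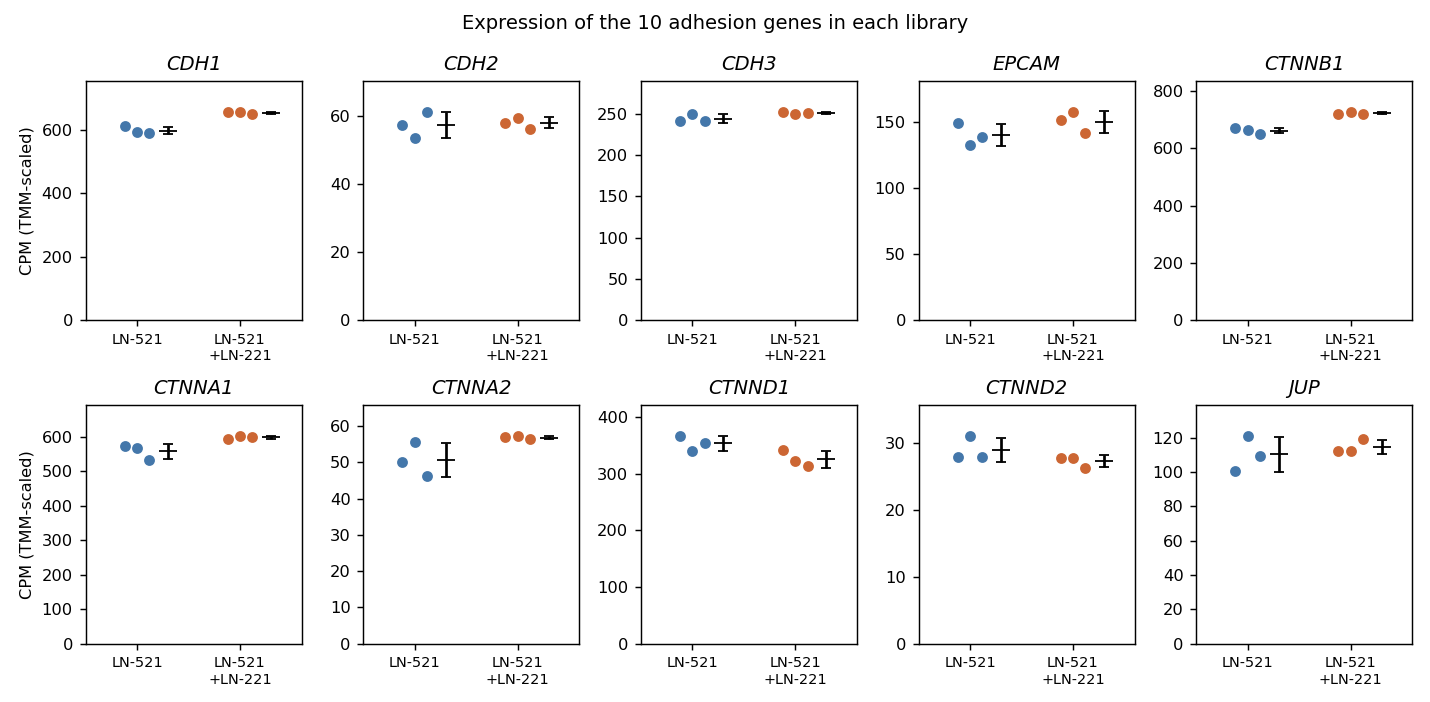
TMM-scaled CPM of each of the 10 genes (vertical axes, from 0) in the 3 LN-521 wells (blue) and the 3 LN-521+LN-221 wells (orange). Points are libraries, and the black bar and whiskers are the mean and SD of 3. The groups sit close together in every panel; the orange points all lie over the blue ones in CDH1, CTNNB1, CTNNA1 and CTNNA2 and under them in CTNND2, and 19.9% of all genes did not overlap.

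CDH1 (ENSG00000039068, chr16:68737225-68835548, plus strand, GRCh38), encoding E-cadherin, was the most abundant cadherin. Its expression was 610, 592 and 589 CPM in the 3 LN-521 wells and 655, 655 and 649 CPM in the 3 LN-521+LN-221 wells. All LN-521+LN-221 wells were higher than all LN-521 wells. The log2 fold change was 0.13 ± 0.05 (SE), a fold of 1.09 with a 95% interval of 1.02 to 1.17 (edgeR adjusted p = 0.198). The call depended on the processing: CDH1 passed with a correction for transcript GC content (0.13, edgeR adjusted p = 0.0403, where 5.36% of all genes passed) and without LN-521 replicate 1 (0.14, edgeR adjusted p = 0.0495, where 6.54% passed).

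CDH3 (ENSG00000062038, chr16:68636189-68722616, plus strand), encoding P-cadherin, is the neighbour of CDH1, and 14608 bases separate the end of CDH3 from the start of CDH1 in GENCODE release 29. It ranged from 241 to 250.04 CPM in LN-521 wells, against 249.2 to 252 CPM in LN-521+LN-221 wells, and the groups overlapped. Its log2 fold change was 0.04 ± 0.05 (SE; edgeR adjusted p = 0.793), with a fold between 0.955 and 1.10, and it was 0.06 without LN-521 replicate 2, 0.07 with the GC correction and 0.08 with limma on log2(TPM + 1) or log2(TPM + 0.1). The CDH1 to CDH3 ratio in TPM was 1.94, 1.84 and 1.78 in LN-521 wells, and 1.94, 1.96 and 2.02 in LN-521+LN-221 wells, so the groups did not overlap, although the lowest LN-521+LN-221 well and the highest LN-521 well were nearly equal.

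CDH2 (ENSG00000170558, chr18:27950966-28177446, minus strand), encoding N-cadherin, was the least abundant of the 3 cadherins. It had 57.5, 53.6 and 61.1 CPM in LN-521 wells, and 58.1, 59.5 and 56.3 CPM in LN-521+LN-221 wells. The LN-521+LN-221 wells all lay inside the range of the LN-521 wells. The log2 fold change was 0.01 ± 0.07 (SE; edgeR adjusted p = 0.949), a fold between 0.917 and 1.11. Its sign was not stable, since it was -0.07 with limma on log2(TMM-scaled TPM + 1), but no setting brought it near the threshold (lowest adjusted p = 0.813).

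The balance between the epithelial and the mesenchymal cadherin was read from the CDH2 to CDH1 ratio in TPM. It was 0.111, 0.1102 and 0.134 in the LN-521 wells and 0.101, 0.106 and 0.0988 in the LN-521+LN-221 wells. The means were 0.119 ± 0.0136 (SD, n = 3) and 0.102 ± 0.00344 (SD, n = 3), so CDH1 stood far above CDH2 on both coatings. The groups did not overlap in TPM, but they did overlap when the ratio was taken in CPM, where the means were 0.0962 and 0.0888. No test was made of these ratios.

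**Figure D2:**
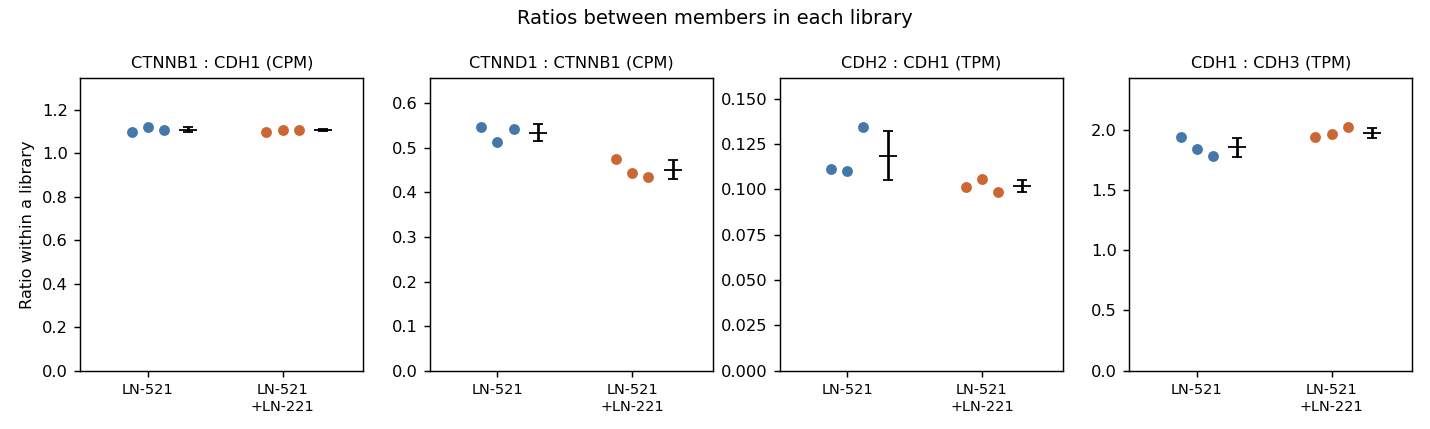
Ratios between pairs of the genes within each library (vertical axes, from 0), for LN-521 (blue) and LN-521+LN-221 (orange), with the mean and SD of 3 in black. In CPM, CTNNB1 to CDH1 stays between 1.0998 and 1.12 in all 6 libraries. CTNND1 to CTNNB1, also in CPM, is 0.512 to 0.546 in blue and 0.435 to 0.475 in orange, but its groups overlap in TPM. The CDH2 to CDH1 and CDH1 to CDH3 panels are in TPM.

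The 10 genes' cadherins were set beside 16 other type I and type II cadherins. Over these 19 cadherins CDH1 made up 52.3% ± 1.03 of the TPM with laminin-521 alone and 53.1% ± 0.919 with both laminins (SD, n = 3 for each coating). CDH3 made up 28.2% ± 0.667 and 26.88% ± 0.450, CDH2 6.20% ± 0.648 and 5.41% ± 0.0887, and the 16 others together 13.2% ± 0.927 and 14.6% ± 1.03 (SD, n = 3 each). Most cadherin mRNA therefore came from the E- and P-cadherin genes on both coatings.

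Of the 16 other cadherins, 12 passed the filter on low counts, 2 rose, 0 fell and 10 did not pass the threshold. Their median log2 fold change was 0.18, beside -0.0011 over all genes, and 1.40% of all genes rose. CDH9 (ENSG00000113100), encoding a type II cadherin known from synapses of the nervous system, had 3.66, 4.21 and 3.25 CPM in LN-521 wells, and 8.09, 7.89 and 8.45 CPM in LN-521+LN-221 wells. All LN-521+LN-221 wells were far above the LN-521 wells. This was a 2.19-fold rise with a 95% interval of 1.79 to 2.68 (log2 fold change 1.13 ± 0.14 SE; edgeR adjusted p = 9.37e-05), and it passed the threshold in all 6 fits that left out a library and in all 9 other alternatives.

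CDH7 (ENSG00000081138), another type II cadherin of the developing nervous system, rose 1.599-fold, from 4.21 ± 0.931 to 6.71 ± 0.604 CPM (SD, n = 3 each; log2 fold change 0.68 ± 0.16 SE; edgeR adjusted p = 0.0296). Its call was lost without LN-521 replicate 3 and without any 1 of the 3 LN-521+LN-221 replicates (0.52 to 0.82 on the log2 scale over the 6 fits), and with limma on log2(TPM + 1), log2(TPM + 0.1) and log2(TMM-scaled TPM + 1), where the estimates were 0.66, 1.09 and 0.64. Both genes stayed minor: CDH9 averaged 2.45 TPM and CDH7 1.45 TPM over the 6 libraries, against 148.7 TPM for CDH1. Of 6 neural ectoderm markers listed, 4 were tested, 0 rose and 1, DCX, fell from 11.6 ± 0.547 to 8.60 ± 1.02 CPM (SD, n = 3 each; edgeR adjusted p = 0.0492, a call lost in 9 of the alternatives). The log2 estimate of DCX was -0.43, and it was -0.56 to -0.33 over the alternatives. The summed TPM of the 6 was 153 to 172 in LN-521 wells, against 175 to 178 in LN-521+LN-221 wells, almost all from NES and TUBB3. In CPM both overlapped between the coatings, NES at 413 ± 19.5 and 429 ± 20.7 (SD, n = 3 each; edgeR adjusted p = 0.712) and TUBB3 at 201 ± 15.3 and 215 ± 10.9 (SD, n = 3 each; edgeR adjusted p = 0.496), while PAX6, SOX1 and NEUROD1 were at 0.53 CPM or less in both groups' means. The part of such cells in the rise of CDH9 and CDH7 was not tested. In bulk RNA, more cells of a type and more RNA per cell cannot be told apart.

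**Figure D3:**
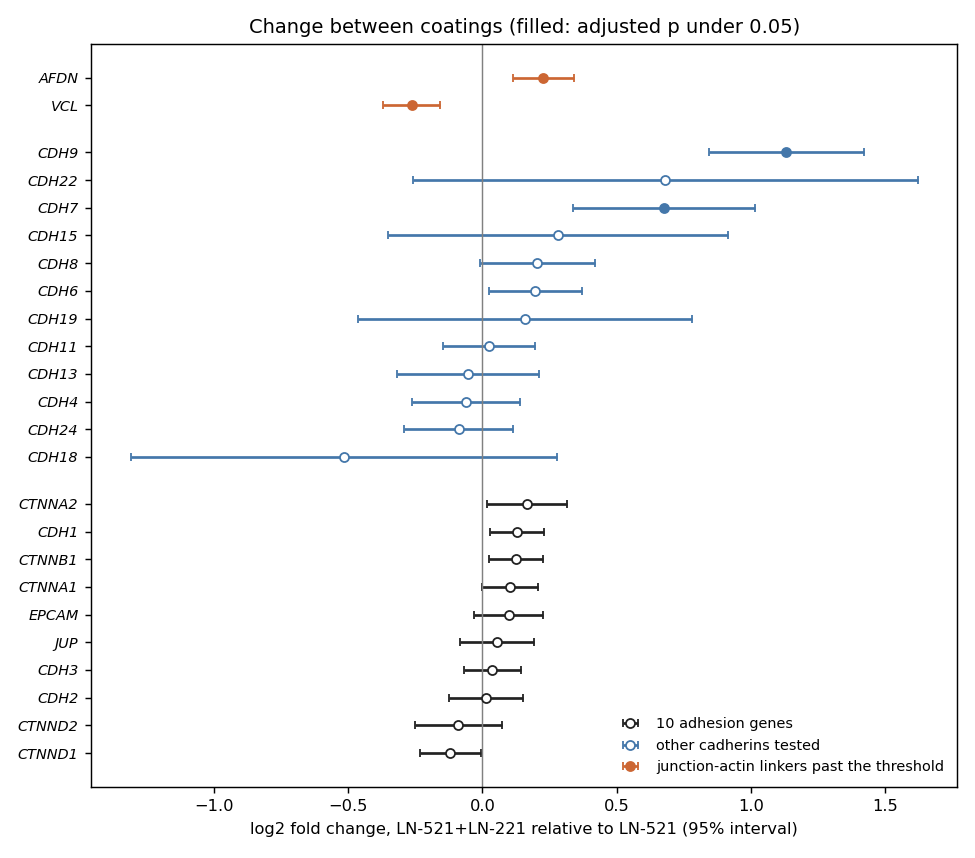
Log2 fold change, the combined coating over laminin-521 alone (horizontal axis), with its 95% interval, for the 10 genes (black), the 12 other cadherins tested (blue) and the junction-actin linkers past the threshold (orange). Filled points have an edgeR adjusted p-value under 0.05. The 10 black intervals lie within a narrow band around 0, and CDH9 stands apart at 1.13.

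The beta-catenin gene CTNNB1 (ENSG00000168036, chr3:41194741-41260096, plus strand) was the most abundant of the 10 by TPM. It had 671, 663 and 651 CPM in LN-521 wells, and 719.9, 726 and 719.7 CPM in LN-521+LN-221 wells. The groups did not overlap. The fold was 1.09 with a 95% interval of 1.02 to 1.17 (log2 fold change 0.13 ± 0.05 SE; edgeR adjusted p = 0.208), close to that of CDH1, and CTNNB1 passed the threshold in no alternative (lowest adjusted p = 0.0669). CPM of 5 of the 10 genes did not overlap between the coatings (CDH1, CTNNB1, CTNNA1, CTNNA2 and CTNND2), beside 19.9% of all genes, or 23.2% of those at least as abundant.

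CTNNB1 and CDH1 kept a nearly fixed proportion. Their CPM ratio was 1.1002, 1.12 and 1.11 in LN-521 wells, and 1.0998, 1.11 and 1.11 in LN-521+LN-221 wells. Its coefficient of variation over the 6 libraries was 0.682%, below the 1.14% that counting error alone gives at these depths. In TPM the ratio varied more, with a coefficient of variation of 3.63%. This pair was singled out after its values were seen.

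JUP (ENSG00000173801, chr17:41754604-41786931, minus strand) encodes plakoglobin, the beta-catenin relative that also serves desmosomes. It ranged from 101 to 121 CPM in LN-521 wells, against 112 to 119 CPM in LN-521+LN-221 wells, and the groups overlapped. Its estimate was 0.05 ± 0.07 in log2 units (SE; edgeR adjusted p = 0.777) with a fold between 0.943 and 1.14. It was -0.0072 without LN-521 replicate 1, 0.13 without LN-521 replicate 2 and 0.02 without LN-521+LN-221 replicate 3, and 0.10 to 0.11 with limma on unscaled TPM or the GC correction. CTNNB1 exceeded JUP by 5.07 to 5.88 times in TPM in every library.

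CTNNA1 (ENSG00000044115, chr5:138610967-138935034, plus strand) encodes the alpha-catenin of epithelia. Its 572, 567 and 533 CPM in LN-521 wells lay below the 594, 602 and 599 CPM of LN-521+LN-221 wells. The gap between the groups was smaller than the range within LN-521. The estimate was 0.10 ± 0.05 in log2 units (SE; edgeR adjusted p = 0.354), a fold between 0.999 and 1.154.

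CTNNA2 (ENSG00000066032, chr2:79185231-80648861, plus strand) encodes the neural alpha-catenin. It had 50.01, 55.5 and 46.3 CPM in LN-521 wells, and 56.9, 57.3 and 56.3 CPM in LN-521+LN-221 wells. The wells on LN-521 were spread widely and those on LN-521+LN-221 were nearly equal, with no overlap. The log2 fold change, the largest point estimate of the 10, was 0.17 ± 0.07 (SE; edgeR adjusted p = 0.277). Its size moved with the LN-521 wells: without LN-521 replicate 3, the lowest, it was 0.11, and without LN-521 replicate 2, the highest, it was 0.24 (edgeR adjusted p = 0.0355, where 3.56% of all genes passed).

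The delta-catenin genes were the only 2 of the 10 with point estimates below 0 in the edgeR test on all libraries. CTNND1 (ENSG00000198561, chr11:57753243-57819546, plus strand), whose protein stabilises cadherins at the membrane, had 367, 339.7 and 353 CPM in LN-521 wells, and 342, 322 and 313 CPM in LN-521+LN-221 wells. A single pair of wells overlapped, LN-521 replicate 2 and LN-521+LN-221 replicate 1. On the log2 scale it differed by -0.12 ± 0.05 (SE; edgeR adjusted p = 0.315), a fold between 0.851 and 0.996, and by -0.05 with limma on log2(TPM + 1) or log2(TPM + 0.1). It was -0.13 with the GC correction, where it came nearest to the threshold (edgeR adjusted p = 0.0545), and -0.15 to -0.09 with a library left out.

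CTNND1 was also set against CTNNB1 in the same library, which removes the scaling between libraries. The CTNND1 to CTNNB1 ratio in CPM was 0.546, 0.512 and 0.543 in LN-521 wells, and 0.475, 0.443 and 0.435 in LN-521+LN-221 wells. Every LN-521+LN-221 well was below every LN-521 well, with means of 0.534 ± 0.0188 and 0.451 ± 0.0212 (SD, n = 3 each). In TPM the same ratio overlapped between the groups, at 0.354 ± 0.0411 and 0.301 ± 0.0156 (SD, n = 3 each). The ratio was chosen after the values were seen and was not tested. Non-whole counts, which show reads divided between genes, occurred for CTNND1 in 3 libraries and for none of the other 9 genes, and AP001931.1, which shares exons with it on the same strand, had 1.51, 1.43 and 1.42 counts in those same 3 libraries and 0 in the others. The annotated readthrough gene TMX2-CTNND1 had 1.71 counts in 1 of them.

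CTNND2 (ENSG00000169862, chr5:10971840-11904043, minus strand), encoding the neural delta-catenin, was the least abundant of the 10. It ranged from 27.9 to 31.1 CPM in LN-521 wells, against 26.2 to 27.8 CPM in LN-521+LN-221 wells, so the groups nearly touched without overlapping. Its estimate was -0.09 ± 0.08 in log2 units (SE; edgeR adjusted p = 0.656), and -0.03 without LN-521 replicate 2 and -0.05 with the GC correction.

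EPCAM (ENSG00000119888, chr2:47345158-47387601, plus strand) encodes an adhesion molecule of epithelia and pluripotent cells that is outside the cadherin family. It had 149.6, 133 and 138 CPM in LN-521 wells, and 151, 157.5 and 141 CPM in LN-521+LN-221 wells, and the groups overlapped. Its estimate was 0.10 ± 0.06 in log2 units (SE; edgeR adjusted p = 0.504), a fold between 0.980 and 1.17. It was 0.06 without LN-521 replicate 2 and 0.06 without LN-521+LN-221 replicate 2. Leaving out LN-521 replicate 1 gave 0.15 and leaving out LN-521+LN-221 replicate 3 gave 0.14. EPCAM passed the threshold in no alternative (lowest edgeR adjusted p = 0.108).

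Compared per transcript length, the 10 genes spread from 187.6 ± 15.8 TPM for CTNNB1 to 6.35 ± 1.11 TPM for CTNND2 (SD, n = 6 libraries of both coatings). Between them, in falling order, stood CTNNA1 at 179.6, CDH1 at 148.7, EPCAM at 97.9, CDH3 at 77.5, CTNND1 at 61.2, JUP at 33.9, CDH2 at 16.3 and CTNNA2 at 12.3 TPM. This order held in all 6 libraries except at the top, where CTNNB1 exceeded CTNNA1 in 4 of 6, and these neighbours did not differ beyond their spread. The genes with neural names or roles, CDH2, CTNNA2 and CTNND2, were the lowest, and the epithelial partner was above its neural relative in every library: CTNNA1 over CTNNA2 by 13.2 to 16.7 times and CTNND1 over CTNND2 by 6.99 to 11.98 times in TPM. Among all genes tested, CTNNB1, CTNNA1 and CDH1 stood at percentiles 97.8, 97.8 and 97.3 of mean TPM, CDH2 at 73.0 and CTNND2 at 51.1.

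**Figure D4:**
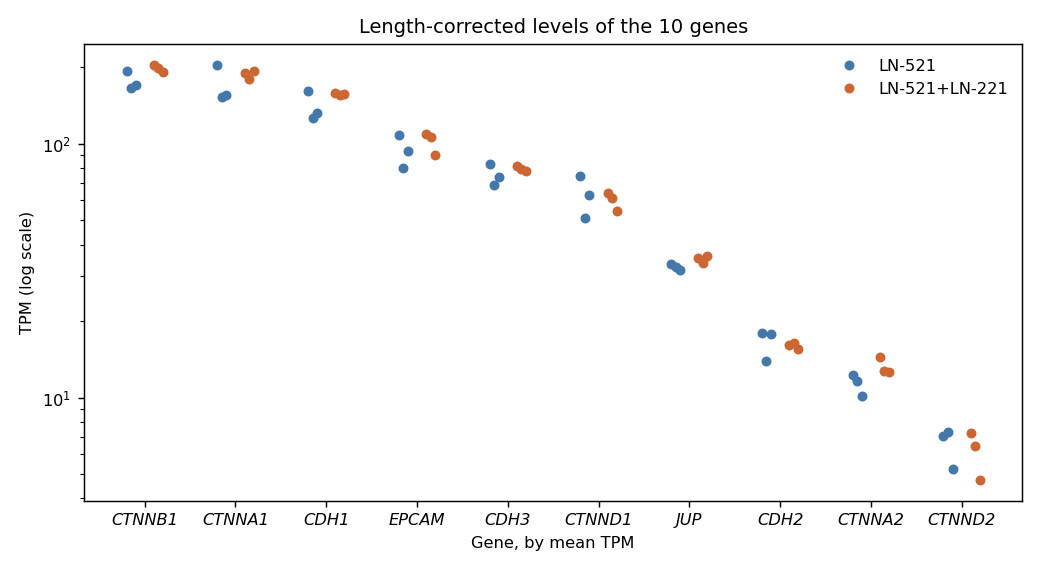
TPM of the 10 genes (vertical log axis) in the LN-521 (blue) and LN-521+LN-221 (orange) libraries, 1 point per library, ordered by mean TPM. The levels fall from CTNNB1 at 187.6 to CTNND2 at 6.35 TPM on average, and the coatings overlap in TPM for 8 of the 10. CTNNA2 and JUP do not overlap, beside 12.8% of all genes, and of these JUP overlaps in CPM.

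Counts and TPM of a gene together give the transcript length that the authors' quantification assigned to it, averaged over its isoforms. This length was computed as counts divided by TPM, scaled in each library by 568 genes with 1 annotated transcript. CTNND2 varied most, from 3308 to 4575 bases between libraries. Its coefficient of variation of 13.4% was above that of 97.6% of 6602 genes with 2 or more transcripts and at least 500 counts in each library, whose median was 3.79%. With 578 to 827 counts per library, CTNND2 lay near the minimum of 500, and the 6602 genes were not matched to it for depth. Its lengths overlapped between coatings, with means of 3772 ± 540 bases with laminin-521 alone and 3903 ± 595 with both laminins (SD, n = 3 for each coating). CTNND2 ranged from 4.73 to 7.29 TPM while its CPM stayed between 26.2 and 31.1. CTNNB1 had the steadiest length of the 10, 3082 to 3195 bases, and no gene's length separated the coatings.

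Promoter sequence was looked up for the genes. RefSeq starts (GRCh38.p14) were found for 6 of the 10, with 15 starts in all. CDH1, CDH3, EPCAM and CTNND1 had no entry, so the CDH1 promoter was not searched. The 250 bases before each start were searched on both strands for GGGCGG (the GC box), CCAAT, and CACCTG. This last is the E-box bound by SNAI and ZEB repressors of CDH1. Windows outside annotated exons are shown for the least abundant of the 10, CTNND2 (chr5:11904447-11904696, minus strand), which did not pass the threshold, and for CDH9 (chr5:27038587-27038836, minus strand), the cadherin with the clearest rise, with any of these motifs in capitals.
CTNND2: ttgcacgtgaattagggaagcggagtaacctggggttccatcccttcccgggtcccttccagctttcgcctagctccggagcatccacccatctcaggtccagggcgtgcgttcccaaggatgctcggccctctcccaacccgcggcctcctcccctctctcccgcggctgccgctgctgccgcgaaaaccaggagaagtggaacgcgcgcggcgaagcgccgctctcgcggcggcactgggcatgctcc
CDH9: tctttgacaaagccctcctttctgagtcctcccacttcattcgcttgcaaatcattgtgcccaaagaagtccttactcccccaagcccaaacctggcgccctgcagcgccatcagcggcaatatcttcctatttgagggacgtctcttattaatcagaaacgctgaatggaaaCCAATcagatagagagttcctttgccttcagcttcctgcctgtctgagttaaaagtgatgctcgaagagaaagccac
The CTNND2 window held none of the motifs at 67.2% GC, and the CDH9 window held 1 CCAAT at 48.4% GC, where the median of 35116 such windows was 58.0%. CCAAT occurred in 32.0% of all windows, GGGCGG in 42.6% and CACCTG in 17.5%.

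Of the 15 windows of the adhesion genes, which leave out CDH1, 1 held the CACCTG E-box. It belonged to an alternative start of JUP, in a window where 233 of the 250 bases are annotated JUP exon, and had the motif 54 and 43 bases before that start (chr17:41786011-41786033, minus strand), shown here because these are the letters the CDH1 repressors are known to bind, with both copies in capitals.
JUP: cccCACCTGccgagCAGGTGagc
A match is only a match of letters. JUP did not pass the threshold in any setting (lowest adjusted p = 0.131).

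Of the 13 listed CDH1 repressors and epithelial activators, 10 were tested and 0 rose or fell (edgeR; 2.53% of all genes passed), with 1 at an unadjusted p under 0.05, beside 14.5% of all genes. SNAI1 was at 7.58 ± 1.56 CPM with laminin-521 alone and 7.75 ± 0.244 with both laminins, and ZEB1 at 0.361 ± 0.140 and 0.402 ± 0.104 CPM (SD, n = 3 each). TCF3, another gene of this list that encodes a repressor of CDH1, was at 243 ± 18.5 and 249.5 ± 6.91 CPM, and the epithelial splicing factor ESRP1 was at 245 ± 7.90 and 244 ± 4.94 CPM (SD, n = 3 each). The gene with an unadjusted p under 0.05 was ESRP2, lower at 37.3 ± 2.09 and 33.0 ± 0.384 CPM (SD, n = 3 each; edgeR adjusted p = 0.249). CPM of 3 genes of the list did not overlap between the coatings, beside 19.9% of all genes. These were ESRP2 and, higher on LN-521+LN-221, GRHL2 (means of 62.8 and 67.9 CPM) and OVOL2 (6.15 and 7.19 CPM). The repressor genes SNAI2, ZEB1 and TWIST1 were among those below the filter on low counts.

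The junction-actin linkers and nectins held the other changes around the cadherin complex. Of 14 genes, all tested, 1 rose and 1 fell, beside 1.40% and 1.14% of all genes. VCL, encoding vinculin, which binds alpha-catenin and actin at junctions under tension and also sits in focal adhesions, had 294, 286 and 299 CPM in LN-521 wells, and 248, 240.2 and 244 CPM in LN-521+LN-221 wells. Every LN-521+LN-221 well was below every LN-521 well. The fall was to 0.833 of the LN-521 level (log2 fold change -0.26 ± 0.05 SE; edgeR adjusted p = 0.00599), but it did not pass without LN-521 replicate 3, without LN-521+LN-221 replicate 2 or replicate 3 (-0.28 to -0.25 over the 6 fits), or with limma on TPM (-0.19, -0.19 and -0.22 in the 3 settings).

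AFDN, encoding afadin, which ties nectins to actin, had 335 ± 18.3 CPM with laminin-521 alone and rose to 392 ± 7.11 with both (SD, n = 3 for each coating), a fold of 1.17 (log2 fold change 0.23 ± 0.05 SE; edgeR adjusted p = 0.0277). Its call was lost without LN-521 replicate 3, without any 1 of the LN-521+LN-221 replicates (0.19 to 0.27 over the 6 fits) and with limma on TPM (0.24, 0.24 and 0.20 in the 3 settings). The nectin genes and TJP1 did not pass the threshold.

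No gene passed in the remaining lists in the edgeR test on all libraries: 0 of 8 desmosome genes tested (of 12 listed), 0 of 6 catenin relatives, 0 of 15 genes of cadherin and EPCAM shedding and turnover, and 0 of 9 genes of the beta-catenin destruction complex, with 3, 0, 3 and 1 at an unadjusted p-value under 0.05. Of all genes 2.53% passed and 14.5% had an unadjusted p under 0.05. The desmosome count depended on the setting: it was 1 with DESeq2 (2.95% of all genes), 2 with the GC correction (5.36%), 2 with the replicate block (3.67%), 3 without LN-521 replicate 1 (6.54%) and 1 without LN-521 replicate 2 (3.56%), all higher on LN-521+LN-221. The shedding and the destruction complex lists each had 1 with the GC correction and 1 without LN-521 replicate 2. In both settings the shedding gene was lower on LN-521+LN-221 and the destruction complex gene was higher. Nearest to the threshold was DSP, encoding desmoplakin, at 177 ± 6.54 CPM with laminin-521 alone and 203 ± 2.43 with both laminins (SD, n = 3 each; log2 fold change 0.20 ± 0.05 SE; edgeR adjusted p = 0.0550). Of the 3 desmosome genes with an unadjusted p under 0.05, DSP and PERP were higher. PKP2 was lower, at 31.9 ± 2.71 and 27.8 ± 0.397 CPM (SD, n = 3 each; log2 fold change -0.20 ± 0.08 SE; edgeR adjusted p = 0.234). AXIN2, a direct target of beta-catenin signalling, was at 48.8 ± 3.79 and 51.4 ± 3.23 CPM (SD, n = 3 each; edgeR adjusted p = 0.704). Over all 7 lists, 74 of 85 genes were tested, 3 rose and 1 fell, beside 1.40% and 1.14% of all genes, and their median log2 fold change was 0.02.

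**Figure D5:**
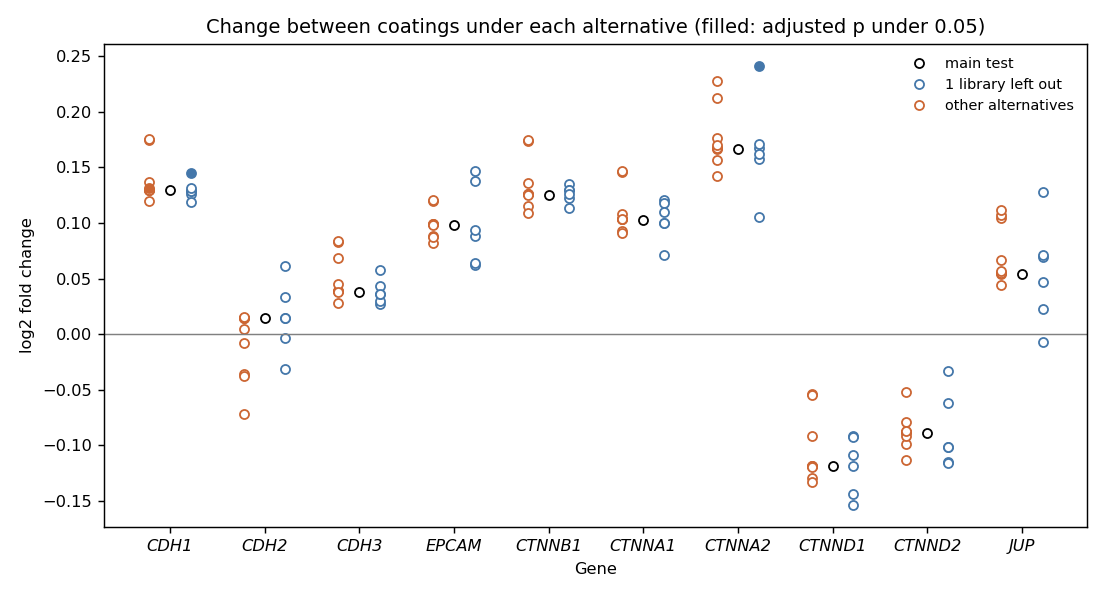
Log2 fold change of each of the 10 genes, the combined coating over laminin-521 alone (vertical axis), under the edgeR test on all libraries (black), with each library left out in turn (blue) and under the 9 other alternatives (orange). Filled points have an adjusted p-value under 0.05: CDH1 with the GC correction (0.13) and without LN-521 replicate 1 (0.14), and CTNNA2 without LN-521 replicate 2 (0.24).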

How the data were processed

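The authors deposited a gene table of estimated counts and a table of TPM values, both without gene names. The submitters' processing notes name cutadapt, STAR 2.5.2b, RSEM 1.2.31 and the build hg38. Libraries were made with a stranded kit, per the labels' protocols, but the annotation and the strand setting of counting are not given in the sources used here. Genes on the opposite strand whose exons overlap those of the 10 had at most 19 counts per library. Gene IDs were matched to symbols, with positions and transcript lengths from GENCODE release 29 (GRCh38). Estimated counts were rounded, genes kept by filterByExpr (minimum count 10), libraries scaled by TMM, and the coatings compared with the quasi-likelihood test of edgeR 4.0.16 (robust options, R 4.3.3) without a replicate block, with a threshold of 0.05. The SE is the log2 fold change divided by the square root of F. Intervals use its t distribution and are not adjusted for the number of genes. DESeq2 was version 1.42.0, without independent filtering, and limma 3.58.1, with trend and robust options, on genes reaching 1 TPM in at least 3 libraries. Scripts were tested on simulated data. The 10 genes and all lists were chosen with earlier results of these data known. Genes named outside the 10 are those past the threshold in a list, at most 3 per direction, and the 3 genes most like CDH1 and CDH2. Others (such as DSP, AXIN2, SNAI1, ZEB1 and ESRP1) were chosen after their values were seen. The authors' deposited sample sheet puts all libraries in sequencing batch 1.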

Additional observations from a re-analysis of the deposited data

How the results depend on the processing

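For the 10 genes, 85 results with all libraries stayed on the same side of 0 and of the threshold, 1 newly passed and 4 changed sign; with a library left out these were 55, 2 and 3. CDH2 was -0.036 with limma on log2(TPM + 1), -0.037 on log2(TPM + 0.1), -0.072 on log2(TMM-scaled TPM + 1) and -0.0083 with the GC correction, and -0.031 to 0.062 with a library left out. JUP was -0.0072 to 0.13 with a library left out. The count of the 10 past the threshold was 1 with the GC correction and 0 to 1 with a library left out. Over all genes, 446 passed (246 higher, 200 lower), against 718 with no filter beyond 1 count (336 higher, 382 lower), 62, 61 and 108 with limma on log2(TPM + 1), log2(TPM + 0.1) and log2(TMM-scaled TPM + 1), (50, 47 and 72 of them higher), and 937 with the GC correction, which was chosen after seeing the data. Leaving out a library gave 194 (without LN-521+LN-221 replicate 3) to 1179 (without LN-521 replicate 1). With the replicate block 646 genes and 0 of the 10 passed. Deviations of same-numbered wells correlated at 0.047, -0.022 and 0.0090, so no shared effect of the number was visible. These correlations cannot show whether the wells were handled in numbered pairs. The CDH2 to CDH1 ratio was 0.0962 on LN-521 and 0.0888 on LN-521+LN-221 in CPM. For these differences the cause was not tested.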

Other observations

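The genes whose log2 CPM followed CDH1 most closely over the 6 libraries were ZBTB10 (Pearson r = 0.998), MPHOSPH9 (0.996) and CHD9NB (0.996), out of 15225 genes with a symbol and a mean of at least 1 CPM. CTNNB1 ranked 10 in that order (r = 0.991) and CTNNA1 489 (0.910), and 547 genes had r above 0.9. The points share the difference between coatings, and all 3 genes rose, ZBTB10 by 0.51 (edgeR adjusted p = 5.29e-05), MPHOSPH9 by 0.22 (0.0464) and CHD9NB by 0.76 (0.0122) on the log2 scale. The genes closest to CDH2 were TCEAL7 (0.994), MED20 (0.992) and CASP9 (0.988), all with log2 fold changes under 0.03. CDH1 and CDH2 themselves had r = 0.123. These values are a description over 6 libraries.

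Of the 4 endothelial markers 2 were tested. TEK, a receptor gene, was at 22.2 ± 2.40 and 22.5 ± 1.80 CPM (SD, n = 3 each; edgeR adjusted p = 0.951). TIE1, another, fell from 4.995 ± 0.471 to 2.75 ± 0.475 CPM (SD, n = 3 each; edgeR adjusted p = 0.00739; log2 fold change -0.87). Its call was lost with limma on TPM, at -0.27, -0.49 and -0.29 in the 3 settings, and without LN-521 replicate 3 or LN-521+LN-221 replicate 3. The endothelial cadherin CDH5 averaged 0.195 and 0.045 CPM.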
